A study of Saccharomyces cerevisiae with 24 samples.

Results

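The trehalose genes of budding yeast (Saccharomyces cerevisiae) comprise 7 genes, which were chosen by name for their place in the pathway, with earlier results of these data known. They are TPS1 (YBR126C), TPS2 (YDR074W), TSL1 (YML100W) and TPS3 (YMR261C), whose products form the trehalose synthase complex, and NTH1 (YDR001C), NTH2 (YBR001C) and ATH1 (YPR026W), which encode trehalases. All 7 are among the 6562 genes of the deposited table, and all 7 passed the filter on low values, a mean of at least 1 RPKM (reads per kilobase of gene, scaled to library size). The strain was CEN.PK in minimal medium, and its cultures were followed in the yeast metabolic cycle, in which dense populations pass together through rounds of high and low oxygen use. RNA was sequenced at 0, 20, 60, 110, 140, 180, 200, 210, 220, 230, 240 and 260 min, with 1 library per time point, so the 12 libraries differ in time and in no genotype or treatment that the labels name. The table numbers its columns 1 to 12, and each was given the time of the RNA sample with that number in its title, a match that no source used here states. The labels name no phase of the cycle and do not say how many cultures or cycles were sampled.

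Trehalose is a sugar made of paired glucose units, which yeast stores and which protects proteins and membranes under stress. Tps1 joins UDP-glucose and glucose 6-phosphate into trehalose 6-phosphate, Tps2 removes the phosphate, and Tsl1 and Tps3 are related regulatory subunits that hold the complex together. Trehalases split the sugar back into glucose: Nth1 and its relative Nth2 are neutral enzymes of the cytosol, with Nth1 switched on by protein kinase A, and Ath1 is an acid enzyme of the vacuole and cell surface. In metabolically cycling cultures stored trehalose and glycogen are known to be built up and used again in turn.

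RNA of all 4 synthase genes was lowest at 220 min and abundant again at 260 min, whereas RNA of the main trehalase NTH1 was lowest at 230 min and had a smaller range. Summed over the 4 synthase genes, the level was 388 RPKM at 210 min, 57.0 RPKM at 220 min, 90.8 RPKM at 230 min, 300.2 RPKM at 240 min and 1267 RPKM at 260 min. Summed likewise, the 3 trehalase genes came to 166 RPKM at 210 min, 95.9 RPKM at 220 min, 75.4 RPKM at 230 min, 101 RPKM at 240 min and 277 RPKM at 260 min. Synthase RNA was therefore 2.34 times trehalase RNA at 210 min, 0.594 times at 220 min, 1.21 times at 230 min and 4.57 times at 260 min. NTH1 made up 51.2% of the trehalase sum at 210 min and 83.8% at 220 min. The trehalase genes NTH2 and ATH1 were 4.23-fold and 7.03-fold lower at 220 than at 210 min. In 11 of the 12 libraries more synthase than trehalase RNA was measured per gene length, and the library at 220 min was the exception. In bulk RNA, a lower level in each cell and fewer cells with the RNA cannot be told apart.

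The time course was tested with a natural cubic spline of 4 degrees of freedom on log2(RPKM + 1), with limma's moderated F-test adjusted over all 6493 genes tested. TPS1, TPS2, TSL1 and ATH1 passed an adjusted p of 0.05 and TPS3, NTH1 and NTH2 did not, so 4 of 7 members varied, against 20.7% of all genes tested. The median fitted range (highest minus lowest fitted value) was 2.89 over the members and 1.10 over all genes tested, both on the log2 scale. Errors here are the scatter of single libraries about the curve, and not a spread between cultures. The times of the highest and lowest fitted value were picked from the same curve, which the SE of a fitted range does not take into account. No member passed with 3 degrees of freedom or without the library at 220, 230, 240 or 260 min. Without 210 min 2 of 7 (TPS2 and TSL1) passed, against 618 of all 6493 genes. Without 20 min 6 of 7 passed, against 2798 of 6493 genes, where 1343 passed with all libraries.

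**Figure D1:**
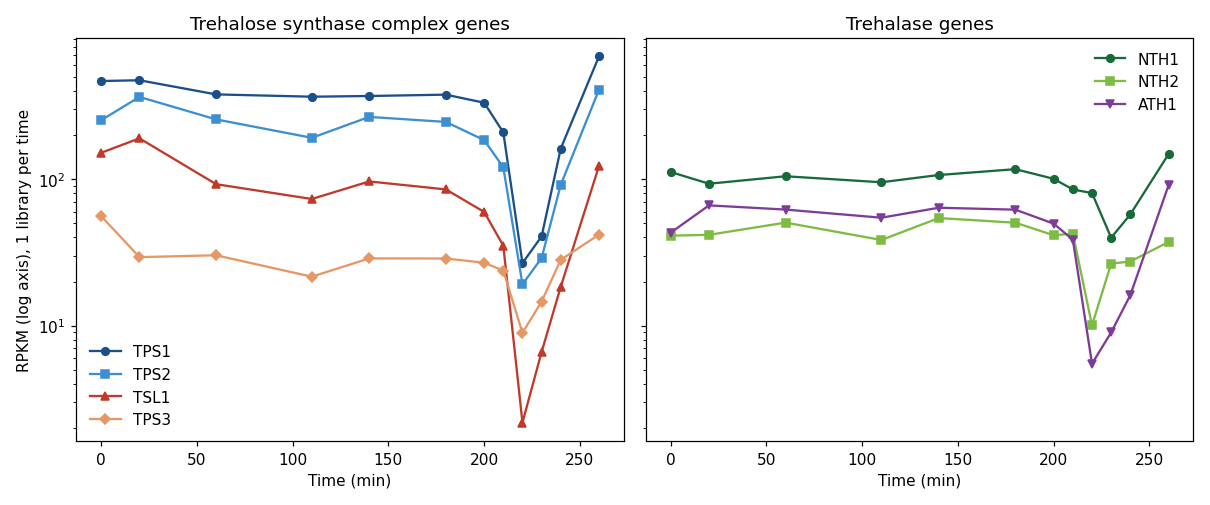
Level of each member in RPKM (log axis) against time in minutes, with 1 library per point and no error bars; synthase genes are on the left and trehalase genes on the right. TPS1, TPS2, TSL1, TPS3, NTH2 and ATH1 are lowest at 220 min and NTH1 at 230 min, and TSL1 reaches the lowest level of all, 2.18 RPKM.

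TPS1 (chromosome II, 488905 to 490392), the catalytic subunit that makes trehalose 6-phosphate, was the most abundant of the 7. Its level was 468 RPKM at 0 min, 474 RPKM at 20 min, 379 RPKM at 60 min, 366 RPKM at 110 min, 370.0 RPKM at 140 min, 378 RPKM at 180 min and 333 RPKM at 200 min. It then stood at 209 RPKM at 210 min, 26.7 RPKM at 220 min, 40.7 RPKM at 230 min, 162 RPKM at 240 min and 692 RPKM at 260 min. Levels in the 5 libraries from 60 to 200 min thus lay within 1.14-fold of each other, and the libraries at 220 and 230 min stood far below them. Between the highest and the lowest library there was a 25.9-fold difference in level. The curve of TPS1 spanned 3.26 ± 0.90 (SE) in log2(RPKM + 1) (limma, adjusted p = 0.0351). It no longer passed without 210 min (limma adjusted p = 0.0600), 220 min (0.293), 230 min (0.295), 240 min (0.220) or 260 min (0.118).

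TPS2 (chromosome IV, 593893 to 596583), the phosphatase of the complex, ran beside TPS1 at a lower level. Before the drop it was at 253 RPKM at 0 min, 365 RPKM at 20 min, 256 RPKM at 60 min, 192 RPKM at 110 min, 266 RPKM at 140 min, 246 RPKM at 180 min, 185 RPKM at 200 min and 121 RPKM at 210 min. From there it was at 19.1 RPKM at 220 min, 28.9 RPKM at 230 min, 91.6 RPKM at 240 min and 410 RPKM at 260 min. As for TPS1, the libraries at 220 and 230 min were the lowest and that at 260 min the highest, and the extremes differed 21.4-fold. TPS2 was highest at 20 min, not 260 min, with median-ratio scaling or quantile normalization. The fitted range of TPS2 was 3.12 ± 0.80 (SE) on the log2 scale (limma, adjusted p = 0.0230), and the call was lost without 220 min (limma adjusted p = 0.234), 230 min (0.241), 240 min (0.189) or 260 min (0.0866).

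TSL1 (chromosome XIII, 70624 to 73920), the larger of the regulatory subunits by coding length, had the widest fitted range of the 7. Its level was 151 RPKM at 0 min, and it peaked in the library at 20 min with 190.2 RPKM. At 60, 110, 140, 180 and 200 min it lay between 59.8 and 96.5 RPKM, with a median of 85.2 RPKM. It then passed through 35.1 RPKM at 210 min, 2.18 RPKM at 220 min, 6.61 RPKM at 230 min, 18.4 RPKM at 240 min and 124 RPKM at 260 min. About 41 reads lie behind the level at 220 min by the estimated depth of that library, and the highest level stood 87.3-fold above it. Of the 6493 genes tested, 129 had a wider range between libraries than TSL1. The curve of TSL1 spanned 4.53 ± 0.83 (SE) in log2(RPKM + 1) (limma, adjusted p = 0.0120), a call lost without 220 min (limma adjusted p = 0.107), 230 min (0.167), 240 min (0.134) or 260 min (0.0503).

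TPS3 (chromosome XIII, 790205 to 793369), the second regulatory subunit, was the least abundant synthase gene in 9 of 12 libraries. Its level was 55.9 RPKM at 0 min, 29.4 RPKM at 20 min and between 21.6 and 30.2 RPKM at the 5 times from 60 to 200 min. It was at 23.7 RPKM at 210 min, 8.93 RPKM at 220 min, 14.6 RPKM at 230 min, 28.2 RPKM at 240 min and 41.9 RPKM at 260 min. Again the library at 220 min was lowest, but the extremes differed only 6.27-fold and the level at 240 min was already 98.03% of the median from 60 to 200 min. At that time TPS1 stood at 43.8%, TPS2 at 37.2% and TSL1 at 21.6% of theirs. TPS3 did not pass (fitted range 1.64 ± 0.40 (SE) on the log2 scale, limma adjusted p = 0.0621), but it did with median-ratio scaling (limma adjusted p = 0.0181), quantile normalization (0.00868), a pseudocount of 10 RPKM (0.0435) and the number of the time point as the time axis (0.00648). Leaving out single libraries brought it past the threshold without 20 min (limma adjusted p = 0.0211) or 60 min (0.0453). In the settings where TPS3 passed, 1731, 1797, 1510, 2657, 2798 and 2097 of all 6493 genes passed, in the order given, against 1343 in the main fit.

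NTH1 (chromosome IV, 450220 to 452475), the main neutral trehalase, was the steadiest member. It was at 112 RPKM at 0 min, 93.1 RPKM at 20 min, 105 RPKM at 60 min, 95.3 RPKM at 110 min, 107 RPKM at 140 min, 117 RPKM at 180 min and 101 RPKM at 200 min. Later levels were 85.1 RPKM at 210 min, 80.4 RPKM at 220 min, 39.8 RPKM at 230 min, 57.5 RPKM at 240 min and 149 RPKM at 260 min. When the synthase genes were at their lowest, at 220 min, NTH1 stood at 76.8% of its median level from 60 to 200 min, and its own lowest library came 10 min later at 38.0%. Its extremes differed 3.73-fold. NTH1 did not pass (fitted range 1.05 ± 0.33 (SE) on the log2 scale, limma adjusted p = 0.145). A curve of 5 degrees of freedom brought NTH1 past the threshold (limma adjusted p = 0.0216) as did leaving out 0 min (0.0325) or 20 min (0.0354). In these settings 2589, 3309 and 2798 of all 6493 genes passed, in the order given, against 1343 in the main fit.

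NTH2 (chromosome II, 238941 to 241283), the paralog of NTH1, was lowest at 220 min and remained low at 230 and 240 min. Its level was 41.1 RPKM at 0 min, 41.7 RPKM at 20 min, between 38.5 and 54.3 RPKM at the 5 times from 60 to 200 min, and 42.5 RPKM at 210 min. It was at 10.0 RPKM at 220 min, 26.5 RPKM at 230 min, 27.4 RPKM at 240 min and 37.3 RPKM at 260 min. Only the library at 220 min stood well apart from the others, and unlike the other 6 members NTH2 was lower at 260 min than its median from 60 to 200 min, at 73.9% of it. NTH2 did not pass (fitted range 1.35 ± 0.45 (SE) on the log2 scale, limma adjusted p = 0.196), and none of the settings tried brought it past the threshold.

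ATH1 (chromosome XVI, 615379 to 619014), the acid trehalase, followed a course closer to that of TPS1 and TPS2 than to those of the neutral trehalases. It was at 43.1 RPKM at 0 min, 66.3 RPKM at 20 min and between 49.7 and 63.8 RPKM at the 5 times from 60 to 200 min. The level was 38.6 RPKM at 210 min, 5.49 RPKM at 220 min, 8.98 RPKM at 230 min, 16.1 RPKM at 240 min and 91.2 RPKM at 260 min. Libraries at 220, 230 and 240 min lay below the rest and the extremes differed 16.6-fold. Over the 12 libraries the log2(RPKM + 1) level of ATH1 had a Pearson r of 0.98 with TPS2, 0.97 with TPS1, 0.87 with NTH2 and 0.78 with NTH1, given as a description of libraries that share the drop at 220 min. The fitted range was 2.89 ± 0.61 (SE) on the log2 scale (limma, adjusted p = 0.0406). The call was lost without 200 min (limma adjusted p = 0.0626), 210 min (0.0560), 220 min (0.338), 230 min (0.349), 240 min (0.270) or 260 min (0.0782).

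By median level the order was TPS1 (368 RPKM), TPS2 (219 RPKM), NTH1 (97.9 RPKM), TSL1 (79.2 RPKM), ATH1 (52.1 RPKM), NTH2 (41.3 RPKM) and TPS3 (28.4 RPKM). Of the neighbours in that order, TPS1 and TPS2 kept their order in all 12 libraries, with a difference in log2(RPKM + 1) of 0.67 ± 0.19 (SD over 12 libraries). TPS2 was above NTH1 in 10 of 12 libraries, but not at 220 and 230 min, with a difference of 0.73 ± 1.05 (SD) in log2(RPKM + 1). NTH1 was above TSL1 in 10 of 12, but not at 0 and 20 min, with 0.89 ± 1.498 (SD). TSL1 and ATH1 differed by 0.39 ± 0.75 (SD), ATH1 and NTH2 by 0.04 ± 0.73 (SD) and NTH2 and TPS3 by 0.45 ± 0.46 (SD) in log2(RPKM + 1). TSL1 was above ATH1 in 9 of 12 libraries, ATH1 above NTH2 in 8 and NTH2 above TPS3 in 9. In each of these 5 pairs of neighbours below TPS1 and TPS2 the mean difference was smaller than its SD over libraries. That SD is a spread over time and not an error of the mean, and the differences in level were not tested.

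The make-up of the synthase RNA differed between libraries. TSL1 made up 18.0% of the summed synthase level at 20 min and 3.82% at 220 min, whereas TPS3 made up 2.77% at 20 min and 15.7% at 220 min. The ratio of TSL1 to TPS3 RPKM was 6.48 at 20 min, 0.244 at 220 min, 0.453 at 230 min, 0.654 at 240 min and 2.95 at 260 min. TPS3 was thus the more abundant regulatory subunit RNA in 3 of 12 libraries, at 220, 230 and 240 min. TPS1 exceeded TPS2 between 1.30-fold and 1.91-fold in every library.

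Whether such differences between members followed time was tested for 6 pairs, by permuting the time points 100000 times and adjusting over the 6 pairs. The statistic was the share of variance of the log2(RPKM + 1) difference that the same spline explains over 12 libraries. The difference between TPS1 and TSL1 passed, with 82.4% explained (permutation p = 0.00670, adjusted p = 0.0402). Its ratio was lowest at 20 min, 2.49, and highest at 220 min, 12.3. This call lay at the threshold and was lost with a pseudocount of 0.1 RPKM (permutation adjusted p = 0.0593) or 10 RPKM (0.421), with 3 (0.0823) or 5 degrees of freedom (0.0925), with the values as deposited (0.0635), and without any of 10 of the 12 libraries (0.0501 to 0.112). For TSL1 against TPS3 80.2% was explained, which missed the threshold (permutation p = 0.0182, adjusted p = 0.0545). This pair passed with the number of the time point as the time axis (permutation adjusted p = 0.0179), with quantile normalization (0.0481) and without 0 min (0.0121) or 20 min (0.0327).

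Synthesis against breakdown, as TPS1 against NTH1, did not pass (60.8% explained, permutation p = 0.135, adjusted p = 0.255). The ratio of their RPKM was 5.09 at 20 min, 3.31 at 200 min, 2.45 at 210 min, 0.332 at 220 min, 1.02 at 230 min, 2.82 at 240 min and 4.66 at 260 min. It lay below 1 in 1 of 12 libraries, that at 220 min. NTH1 against ATH1 did not pass either (56.1% explained, permutation adjusted p = 0.255), with a ratio of 1.41 at 20 min and 14.6 at 220 min. The neutral trehalases NTH1 and NTH2 differed most at 220 min, where the ratio was 8.01, and least at 230 min, where it was 1.501, which the spline did not follow (8.70% explained, permutation adjusted p = 0.988). TPS1 against TPS2 gave 4.33% explained (permutation adjusted p = 0.988), which does not show that their ratio was constant.

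**Figure D2:**
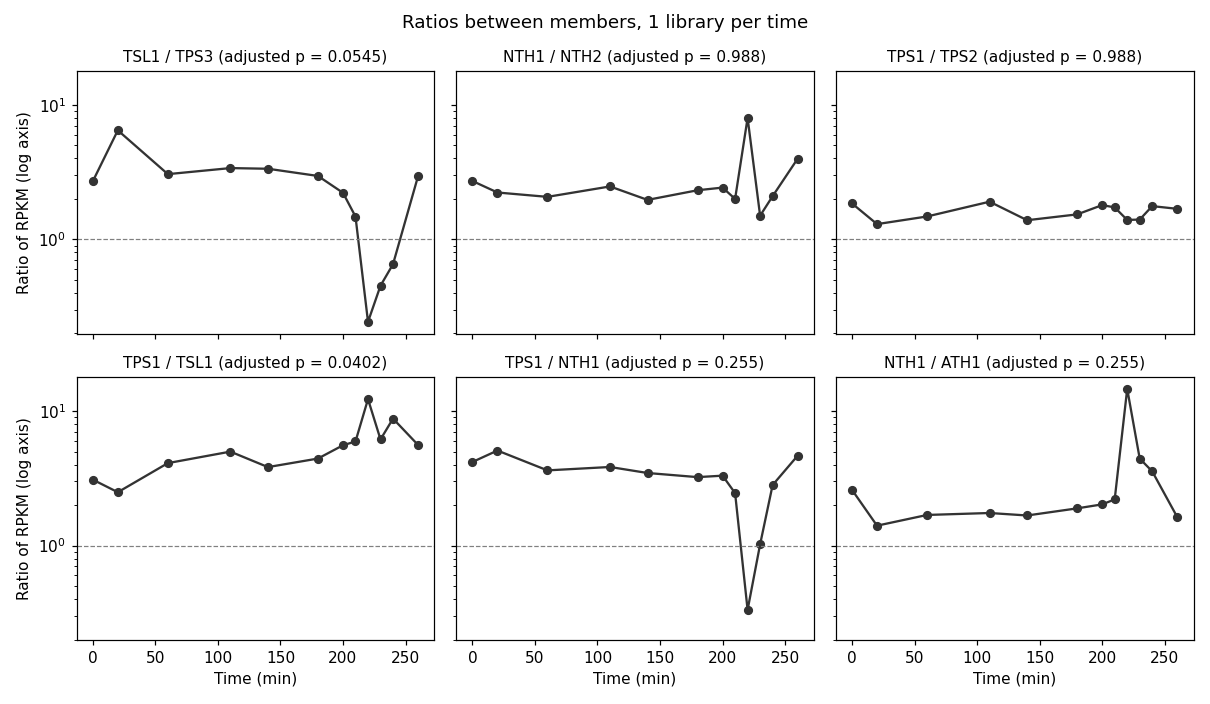
Ratio of the RPKM of 2 members (log axis) against time in minutes for the 6 pairs tested, 1 library per point, with the dashed line at a ratio of 1 and the adjusted permutation p above each panel. TPS1 / TPS2 stays between 1.30 and 1.91, TSL1 / TPS3 lies below 1 at 220, 230 and 240 min, and NTH1 / NTH2 and NTH1 / ATH1 peak at 220 min.

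The steps between neighbouring times had 1 library on each side and were not tested. At 210 to 220 min, 6 of 7 members were at least 2-fold lower in log2(RPKM + 1), against 14.6% of all genes tested, and the exception was NTH1, with a difference of -0.08. The largest difference among members was that of TSL1, -3.51, and 11 of the 6493 genes tested had a more negative one. TPS1 had -2.92, ATH1 -2.61, TPS2 -2.59, NTH2 -1.98 and TPS3 -1.32, beside a median of -0.17 over all genes tested. Before that, at 200 to 210 min, TSL1 (-0.75), TPS1 (-0.67) and TPS2 (-0.61) were already lower in log2(RPKM + 1), and 1.85%, 2.76% and 3.68% of the genes tested had more negative differences.

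The return took different lengths of time. At 220 to 230 min TSL1 and NTH2 were at least 2-fold higher, 2 of 7 members against 7.45% of all genes tested, while NTH1 went from 80.4 to 39.8 RPKM, 2.02-fold lower in RPKM and lower by just under 1 in log2(RPKM + 1). At 230 to 240 min it was TPS1, TPS2 and TSL1, 3 of 7 against 9.83%. At 240 to 260 min TPS1, TPS2, TSL1, NTH1 and ATH1 were at least 2-fold higher, 5 of 7 against 11.9%, whereas TPS3 (0.56) and NTH2 (0.43) were higher by less in log2(RPKM + 1). From 20 to 60 min TSL1 was lower by 1.03 in log2(RPKM + 1), 1 of 7 members against 3.79% of all genes at least 2-fold lower.

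**Figure D3:**
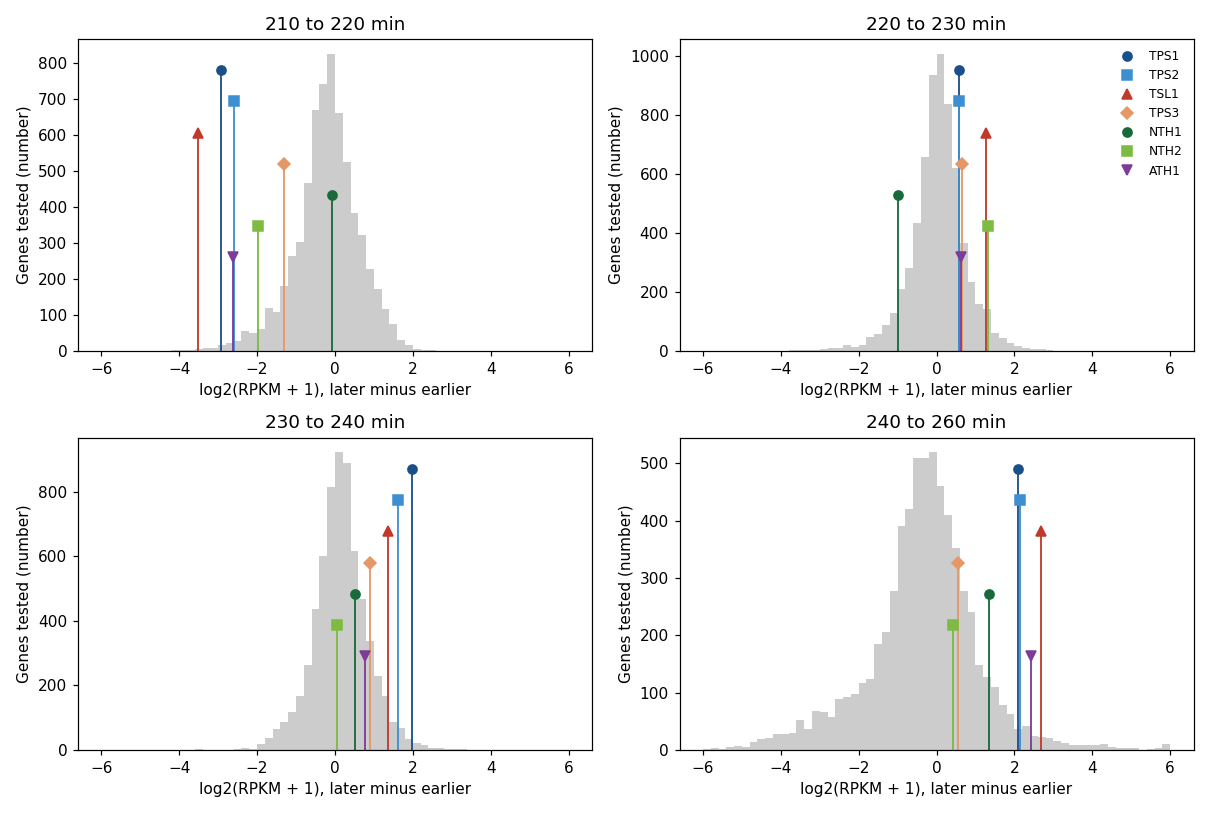
Number of genes tested (grey) by the difference in log2(RPKM + 1) across 4 steps of the time course, later minus earlier, with each member as a coloured marker whose height has no meaning. Differences beyond 6 are drawn in the outermost bars; at 210 to 220 min 6 of 7 members lie below -1 and NTH1 lies near 0, and at 240 to 260 min all 7 lie above 0.

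Over the whole course 4 of 7 members (TPS1, TPS2, NTH1 and ATH1) had their highest library at 260 min, against 15.8% of all genes tested, and 6 of 7 had their lowest at 220 min, against 21.6%. With median-ratio scaling or quantile normalization the highest library of TPS2 was that at 20 min instead. Each of the 7 was higher at 260 than at 220 min, with a median difference in log2(RPKM + 1) of 3.83 against 0.02 over all genes tested, and this direction held with median-ratio scaling and quantile normalization. The libraries at 260 and 0 min did not hold equal levels. ATH1 was 2.11 times, TPS2 1.62 times, TPS1 1.48 times and NTH1 1.33 times as high at 260 min as at 0 min, and NTH2 0.906 times, TSL1 0.816 times and TPS3 0.749 times. With median-ratio scaling the ratio of NTH2 turned to 1.07, and TSL1 stood at 0.964 and TPS3 at 0.885.

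Library depth, inferred from the spacing of a minority of low values, was about 4360000 reads (20 min) to 5960000 reads (0 min). The lowest member values rest on about 41 reads (TSL1), 113 reads (ATH1) and 133 reads (NTH2), all at 220 min. The median gene, relative to its mean over libraries, lay at -0.28 on the log2 scale at 20 min, 0.21 at 240 min, 0.13 at 0 min and -0.11 at 260 min.

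None of the 7 genes overlaps another gene in the annotation, and the nearest neighbours lie 312 to 1473 bases away. Strand is not kept by the library kit, so reads running in from a neighbour would be counted. The gene beside the start of NTH1 is YRB1, a nuclear transport gene 569 bases away, which stood at 459 RPKM at 210 min, 1035 RPKM at 220 min and 844 RPKM at 230 min. YRB1 was highest at 220 min, where NTH1 did not share the drop of the other members. NTH1 also departed from them at 230 min, where it was lower than at 220 min and the other members were higher. The part of YRB1 in the NTH1 level was not tested. TIF11, a translation initiation factor gene 365 bases from TPS3, had 938 RPKM in the library at 220 min and 1291 RPKM in that at 230 min, and its part in the TPS3 level was not tested either. Other neighbours also differed between those libraries. MEO1, 457 bases from TPS1, had 213 RPKM in the library at 220 min and 929 RPKM in that at 260 min, and YMR262W, 356 bases from TPS3, had 5.78 RPKM and 71.6 RPKM, and their part was not tested. By the strand letter of their systematic names, YRB1 (YDR002W), TIF11 (YMR260C), MEO1 (YBR126W-A) and YMR262W are transcribed away from the member beside them. Neighbours transcribed toward a member had, at 220 min, 34.4 RPKM (RMD1, beside NTH1), 103 RPKM (RER2, NTH2) and 67.7 RPKM (SNF11, TPS2). ARG81 and YML100W-A, both beside TSL1, had 34.2 and 0 RPKM, and YPR027C, beside ATH1, had 7.12 RPKM. Their part was not tested either.

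Genes with courses most like each member were ranked by Pearson r of log2(RPKM + 1) over the 12 libraries, among the 5025 genes that had a symbol and averaged 10 RPKM or more. These r values are descriptions of libraries that share depth and the drop at 220 min. An r of at least 0.9 was reached by 440 genes (8.76%) for TPS1, 413 for TPS2, 290 for TSL1, 437 for ATH1, 98 for TPS3, 46 for NTH2 and 27 (0.537%) for NTH1. The counts were lowest for NTH1, NTH2 and TPS3, which also had the narrowest fitted ranges (1.05, 1.35 and 1.64 on the log2 scale). Scatter lowers r more where the range is small, so these counts do not show how common a course is.

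For TPS1 the 5 nearest were RIM11 (r = 0.995), a protein kinase of the GSK-3 family, TPK2 (0.994), a catalytic subunit of protein kinase A, ATG42 (0.993), a vacuolar carboxypeptidase, NCA2 (0.992) and GGA1 (0.992), a Golgi adaptor. RIM11 stood at 22.5 RPKM in the library at 220 min and at 174 RPKM in that at 260 min (limma adjusted p = 0.0414). RIM11 was also nearest to TPS2 (0.996), followed by YET1 (0.994), an endoplasmic reticulum protein, the mitochondrial chaperone HSP78 (0.993), TPS1 itself (0.991) and the nicotinamidase PNC1 (0.991). Among the genes nearest to TSL1 were RRT8 (0.985), TPS2 (0.983), PGM2 (0.983) and TVP15 (0.981). PGM2, the main phosphoglucomutase, makes glucose 1-phosphate, from which UDP-glucose is formed, and had 14.7 RPKM in the library at 220 min and 803 RPKM in that at 260 min (fitted range 4.08 ± 0.83 on the log2 scale, limma adjusted p = 0.0193).

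ATH1 was nearest to GID11 (0.994), a substrate receptor of the GID ubiquitin ligase, SAF1 (0.991), an F-box protein, IKS1 (0.990), MLG1 (0.988) and GIP2 (0.987), a regulatory subunit of the protein phosphatase Glc7. TPS3 was nearest to AGP2 (0.972), MRK1 (0.969), another kinase of the GSK-3 family, YCX1 (0.961), MDM31 (0.961) and DPP1 (0.960). AGP2, MRK1, MDM31 and DPP1 shared with TPS3 a highest library at 0 min. NTH1 was nearest to COQ6 (0.936), of ubiquinone synthesis, NSG2 (0.935), the glyoxylate reductase GOR1 (0.935), the ATPase CDC48 (0.933) and TCB3 (0.928), each lowest at 230 min like NTH1. NTH2 was nearest to TMS1 (0.982), PPH22 (0.970), a catalytic subunit of protein phosphatase 2A, the kinase PKH1 (0.969), SSH4 (0.968) and IML2 (0.962), each lowest at 220 min. None of the 10 genes nearest to NTH1 or NTH2 passed the time-course test (limma adjusted p of 0.117 to 0.454).

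The members themselves ranged in likeness from r = 0.991 for TPS1 with TPS2 to r = 0.46 for NTH1 with NTH2. By rank correlation (Spearman rho) NTH1 with NTH2 was not the lowest pair. Its rho was 0.51, against 0.46 for TPS3 with NTH2 and 0.47 for TPS1 with NTH2. The paralogs TSL1 and TPS3 had r = 0.86. Among the 5024 genes compared with NTH1, ATH1 ranked 406th, TPS2 491st and NTH2 1365th.

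Genes around trehalose were taken as 5 lists, of which all 55 genes were tested. Of the 8 genes that supply hexose phosphate and UDP-glucose, 5 varied, against 4 of 7 trehalose genes and 20.7% of all genes tested. PGM2 and HXK1, a hexokinase, had the widest fitted ranges, and HXK1 had 92.8 RPKM in the library at 220 min and 4033 RPKM in that at 260 min (range 4.04 ± 1.00 (SE), limma adjusted p = 0.0296). In that list 7 of 8 were higher at 260 than at 220 min, against 50.5% of all genes tested, and HXK2, the hexokinase that prevails on plentiful glucose, was the exception, with 324 RPKM in the library at 220 min and 75.0 RPKM in that at 260 min, without passing (limma adjusted p = 0.221). PGM1, the minor phosphoglucomutase, stayed between 23.1 and 43.4 RPKM (limma adjusted p = 0.986).

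Among 12 genes of glycogen, the other storage sugar, 8 varied, against 20.7% of all genes tested. All 12 were at least 2-fold lower at 220 than at 210 min, against 14.6% of all genes and 6 of 7 trehalose genes. GIP2 had 3.95 RPKM in the library at 220 min and 282 RPKM in that at 260 min (range 4.92 ± 1.05 (SE), limma adjusted p = 0.0491), and the glycogen phosphorylase GPH1 had 7.71 RPKM in the library at 230 min and 546 RPKM in that at 260 min (range 4.11 ± 1.07 (SE), limma adjusted p = 0.0269). The median difference between 260 and 220 min was 3.83 in log2(RPKM + 1) for the glycogen genes and 3.83 for the trehalose genes.

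Of 13 genes that act on neutral trehalase or in the protein kinase A pathway, 7 varied, against 20.7% of all genes tested, and not all in the same direction. DCS2, related to DCS1 whose product restrains neutral trehalase, had 15.5 RPKM in the library at 230 min and 717 RPKM in that at 260 min (range 4.05 ± 0.89 (SE), limma adjusted p = 0.0478). RAS1, which switches on adenylate cyclase, instead had 198 RPKM in the library at 220 min and 7.87 RPKM in that at 260 min (range 3.73 ± 0.57 (SE), limma adjusted p = 0.00453). TPK3 (highest at 230 min) also varied and PDE2 (highest at 220 min) did not, and these 3 were the genes of the list that were lower at 260 than at 220 min. DCS1, RAS2 and CYR1 were among those that varied and were higher at 260 than at 220 min.

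Of 8 stress transcription regulators 1 varied, against 20.7% of all genes tested, and their median fitted range, 0.80 on the log2 scale, was the smallest of the 5 lists. That gene was MSN4, a transcription factor of the general stress response, with 43.1 RPKM in the library at 110 min and 14.1 RPKM in that at 260 min (range 1.37 ± 0.32 (SE), limma adjusted p = 0.0362), and its partner MSN2 stayed between 35.9 and 53.5 RPKM (limma adjusted p = 0.814). Of 14 general stress genes 5 varied, against 20.7% of all genes tested. Their median fitted range, 4.14 on the log2 scale, was the widest of the 5 lists. The genes of this list that did not pass had fitted ranges of 2.97 to 6.06, so not passing did not mean a flat course. All 14 were at least 2-fold lower at 220 than at 210 min, against 14.6% of all genes, and at least 2-fold higher at 260 than at 240 min, against 11.9%. CTT1, the cytosolic catalase, had 333 RPKM in the library at 60 min and 2.93 RPKM in that at 230 min (range 5.72 ± 1.23 (SE), limma adjusted p = 0.0483), and SOL4, a gene related to phosphogluconolactonases, had 478 RPKM in the library at 20 min and 7.46 RPKM in that at 230 min (range 4.85 ± 0.97 (SE), limma adjusted p = 0.0321).

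**Figure D4:**
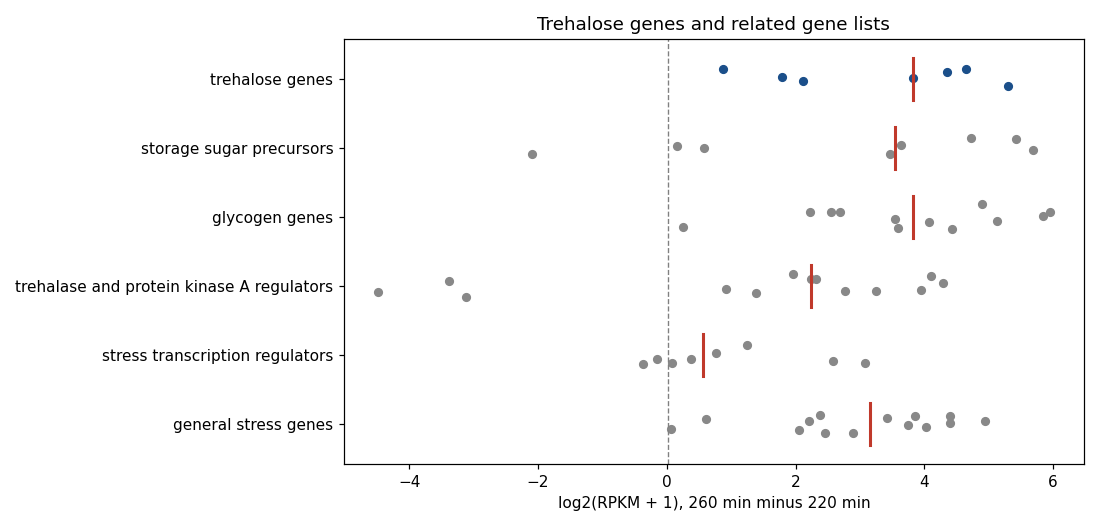
Difference in log2(RPKM + 1) between the libraries at 260 and 220 min for each gene of the trehalose genes (blue) and of the 5 related lists (grey), with each list's median as a red bar and the median of all genes tested, 0.02, as a dashed line. The medians are 3.83 for trehalose genes, 3.55 for sugar precursors, 3.83 for glycogen genes, 2.24 for regulators of trehalase and protein kinase A, 0.56 for stress transcription regulators and 3.16 for general stress genes.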

How the data were processed

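RNA was extracted by the hot phenol method and sequenced from NEBNext Ultra RNA kit libraries, per the labels' protocols. The submitters' processing notes name Bowtie2 and R64; how reads were counted per gene is not given in the sources used here. Gene values were deposited as signal, under the heading RKPM per the file headers. Multiplied by kilobases of gene, they add up to between 41456106 and 44803199 in a library, too much for RPKM, and part of the low values lie in steps of about 50 bases. Dividing the authors' signal by a read length of 50, an inference from the values alone, gave what is called RPKM here. A second deposited table, a fraction of each gene's maximum, matched the first to within 2.22e-16 after the same division and was not used further. Symbols and coordinates come from RefSeq's R64 annotation, in which 5891 of 6562 genes were found by systematic name. Table columns were matched to RNA samples by the number each title carries, and every time given here rests on that match, which no source used here states. MNase-seq samples were not analysed here, and promoter motifs, named in the design, were not examined.

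Genes averaging 1 RPKM or more were fitted in limma 3.58.1 (R 4.3.3) to log2(RPKM + 1) with a natural cubic spline in minutes and 4 degrees of freedom, with a trend in the mean and Benjamini-Hochberg adjustment over all genes tested. Fold changes on this scale understate those of low genes. The spline code and the permutation test were tested on simulated data. Depth is the read number whose multiples, to within 1%, hold the largest number of low values, which was 19 to 39 of the 92 to 119 low values of a library. It is an estimate from a minority of values, so no counting interval was made. Named genes are the 7 members, the 5 genes nearest to each (1 is not reported here), and in each list the 2 widest fitted ranges among those past the threshold that averaged 10 RPKM or more. HXK2, PGM1, MSN2, YRB1, TIF11, MEO1, YMR262W, RMD1, RER2, SNF11, ARG81, YML100W-A, YPR027C, DCS1, TPK3, PDE2, RAS2 and CYR1 were named after their values were seen. The members and lists were chosen with earlier results of these data known.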

Additional observations from a re-analysis of the deposited data

How the results depend on the processing

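The number of members past the time-course test, 4 of 7, was 0 with 3 degrees of freedom, where 145 genes of 6493 passed in all, and 4 or 5 with the other settings that kept all libraries. Settings with 4 members had 1273 to 1343 genes passing in all. Those with 5 members had 1510 (pseudocount of 10 RPKM), 1731 (median-ratio scaling), 1797 (quantile normalization), 2589 (5 degrees of freedom) and 2657 (time point number). The number of members ran from 0 to 6 when 1 library was left out. Against 1343 genes with all libraries, 282 genes passed in all when the library at 220 min was left out, 338 when that at 230 min was, 277 for 240 min and 828 for 260 min, each with 0 members. Leaving out 210 min gave 618 genes with 2 members, leaving out 0 min gave 3309 with 5, and leaving out 20 min gave 2798 with 6. The cause was not tested. Leaving out a library also moves the knots of the curve.

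The difference between TPS1 and TSL1 (adjusted permutation p = 0.0402) had an adjusted p of 0.0823 with 3 and 0.0925 with 5 degrees of freedom, 0.0593 with a pseudocount of 0.1 RPKM, 0.421 with 10 RPKM and 0.0635 with the values as deposited, and 0.0430 to 0.112 when 1 library was left out. TSL1 against TPS3 (0.0545) had 0.0179 with time point number and 0.0481 with quantile normalization, and 0.0121 to 0.342 when 1 library was left out. The other pairs did not pass in any setting run for them, with adjusted p of 0.0505 to 0.542 for TPS1 against NTH1 over those settings. The pairs were not run with median-ratio scaling or other filters on low values. No paired analysis was possible because each time point has 1 library.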
